A study of Mus musculus with 2 samples.

Results

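The 41 genes described here encode proteins of DNA damage sensing and repair, and were listed by name with earlier results of these data known, without a rule on any measured value. They were read in 4T1 cells, a mouse mammary carcinoma line that metastasizes to the lung, after 48 h with PBS or with potassium oxalate, with 1 polyadenylated RNA library per condition. The oxalate dose stands as 20 µM in the sample's own treatment label and in the methods of the study, and as 20 mM in the treatment protocol and the series design. No genotype was altered in either culture, and both libraries come from the same cell line. All 41 genes were found among the 21911 genes of the deposited table, and all 41 had a mean of at least 1 FPKM over the libraries. FPKM is the number of fragments mapped to a gene, divided by transcript length in kilobases and by the size of the library. Levels can thus be set side by side between genes. Between libraries the ratios also depend on scaling, since FPKM summed to 567163 with PBS and to 559026 with oxalate. A single library of each kind allows no test of oxalate against PBS, and every difference below is without a replicate check.

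DNA is damaged continually in every cell, and separate pathways mend each kind of lesion. Homologous recombination copies the sister chromatid to repair a broken double helix, whereas end joining ligates the broken ends directly. Excision repair cuts out a damaged base or a distorted stretch of a single strand, mismatch repair corrects replication errors, and the Fanconi anaemia pathway unhooks crosslinked strands. In the mammary gland these pathways are best known because inherited loss of recombination genes predisposes to breast cancer. The transcripts of many of them are made mainly in dividing cells.

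The identity of the cells was checked first. Krt8, a keratin of simple epithelia, was at 401.94 FPKM with PBS and at 429.31 with oxalate. Cdh1, the epithelial cadherin, was at 187.7 and 199.34 FPKM. The immune markers Ptprc, Cd3e, Adgre1 and Ly6g were listed at 0 in both libraries, and the endothelial and adipocyte markers were at 0.06 FPKM or below. Of the basal keratins, Krt14 was at 74.61 and 71.09 FPKM, the only epithelial marker above 1 FPKM that was lower with oxalate, and Krt5 was at 0 and 0.03 FPKM. Col1a1, a collagen chain typical of fibroblasts, was at 143.48 and 144.61 FPKM. The PBS library was 1.56-fold deeper than the oxalate library by estimated reads, and each repair gene had between 157 and 11868 estimated reads with PBS and between 91 and 8013 with oxalate.

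Transcript levels of the repair genes were close to each other with oxalate and with PBS. Their levels added up to 820.76 FPKM with PBS and to 818.59 FPKM with oxalate. The median log2((oxalate + 1)/(PBS + 1)), called the log2 ratio below, was -0.0020 over the 41 genes against 0.0031 over all 10267 genes with a mean of at least 1 FPKM. With oxalate 20 genes were higher and 21 lower, whereas 50.6% of all genes compared were higher and 49.0% lower. None of the 41 passed 1.2-fold in either direction, which 9.94% of all genes compared did (4.75% higher and 5.19% lower). None passed 1.5-fold, which 1.99% did (0.935% higher and 1.05% lower), or 2-fold, which 0.653% did (0.292% higher and 0.36% lower). The 1.2-fold limit is a log2 ratio of 0.263, and Xrcc4 at -0.262 lay just inside it. A log2 ratio of at most 0.1 in size was found for 25 of the 41 genes (61.0%) and for 56.2% of all genes. The added 1 FPKM makes the differences of low genes look smaller, and with 0.01 FPKM in its place 5 genes (Palb2, Rad51c, Xrcc3, Xrcc4 and Msh3) lay past 1.2-fold beside 13.7% of all genes.

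**Figure D1:**
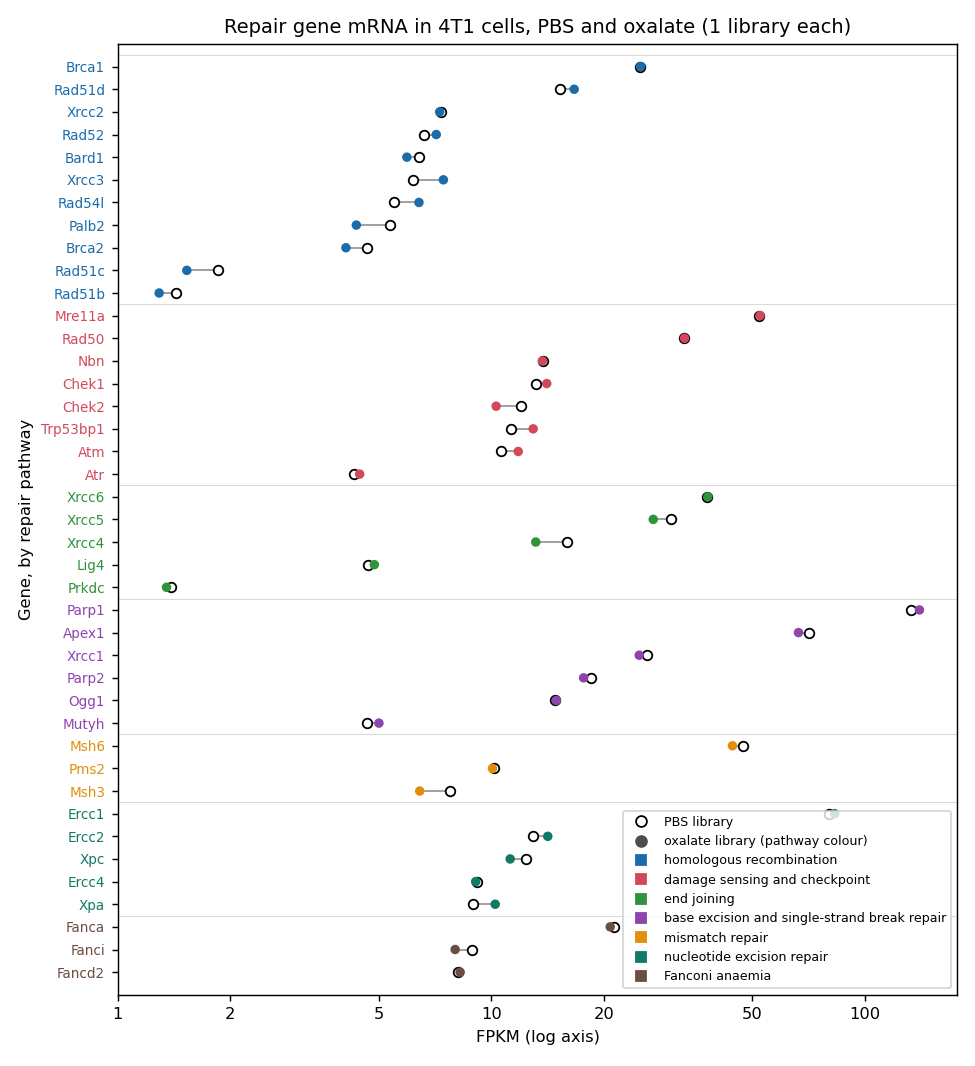
FPKM of each repair gene (log axis) in the PBS library (open circles) and the oxalate library (filled circles), grouped by pathway, with 1 library per condition and no error bars. Levels ran from 1.39 to 133.18 FPKM with PBS, and the 2 circles of a gene nearly coincide for most genes.

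Levels spanned 95.8-fold in the PBS library, from Prkdc at 1.39 FPKM to Parp1 at 133.18 FPKM, and 108.5-fold in the oxalate library. The order of the genes was nearly the same in both, with 27 of 41 genes at the same rank or 1 apart and a largest shift of 5 ranks, that of Xrcc4 from rank 13 to rank 18. Parp1, Ercc1, Apex1, Mre11a and Msh6 were the 5 highest in this order in both libraries. At the other end stood Prkdc, Rad51b and Rad51c, all below 2 FPKM. Most of these transcripts lay below the median level of all genes compared (16.51 and 16.54 FPKM), which 12 of the 41 exceeded with PBS and 13 with oxalate. The median level of the 41 was 11.31 and 11.23 FPKM.

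A counting interval was set on each ratio from the estimated reads (exact Clopper-Pearson, 95%, on the ratio without an added FPKM). Reads carry no molecular identifiers, which could tell copies of the same molecule apart. The interval covers counting error only and leaves out the variation between cultures, so it is narrower than an interval that included it. By this measure 8 genes lay above equality and 11 below, together 19 of 41 (46.3%), beside 48.8% of all genes compared. At the mean transcript length, used here, the share among the repair genes was therefore near that of all genes. An interval apart from 0 was common in these libraries. Of the 41 genes 21 had between 905 and 3264 estimated PBS reads, and 9 of these had an interval apart from 0, beside 45.4% of all genes with as many reads. Reads estimated from the shortest coding transcript gave 9 of 41 beside 35.1%, and from the longest 21 of 41 beside 54.7%. The 9 were Brca2, Bard1, Palb2, Xrcc3, Rad54l, Xrcc4, Xrcc5, Apex1 and Ercc2. Intervals printed below use the mean length, and those of Chek2, Msh3, Msh6, Xpa, Fanci and Parp1 included 0 with the shortest. At the mean length, 24.9% of all genes lay above 0 and 23.9% below.

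**Figure D2:**
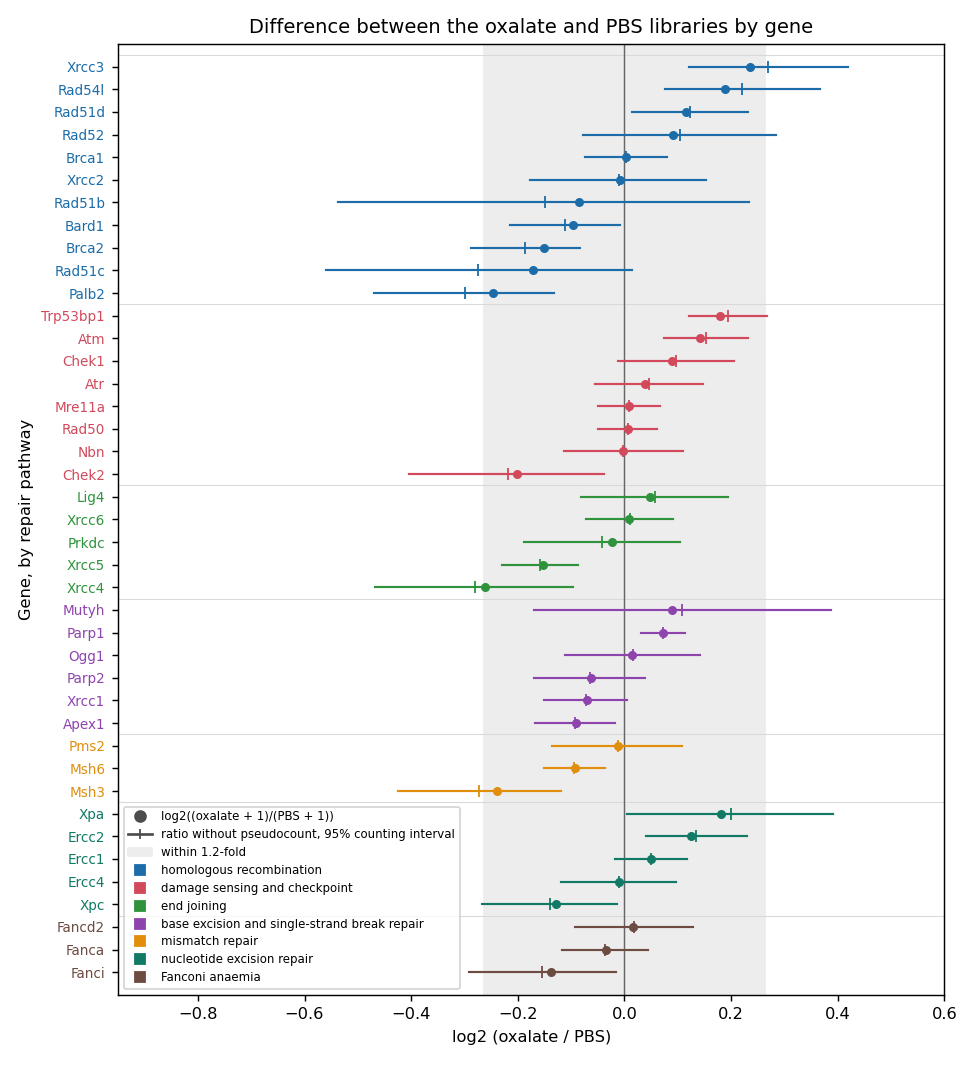
Log2 ratio of oxalate to PBS for each repair gene (horizontal axis), with the added 1 FPKM (dots) and without it (ticks, with 95% counting intervals that leave out the variation between cultures). All 41 dots lie within the grey band of 1.2-fold, between -0.26 for Xrcc4 and 0.24 for Xrcc3.

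**Figure D3:**
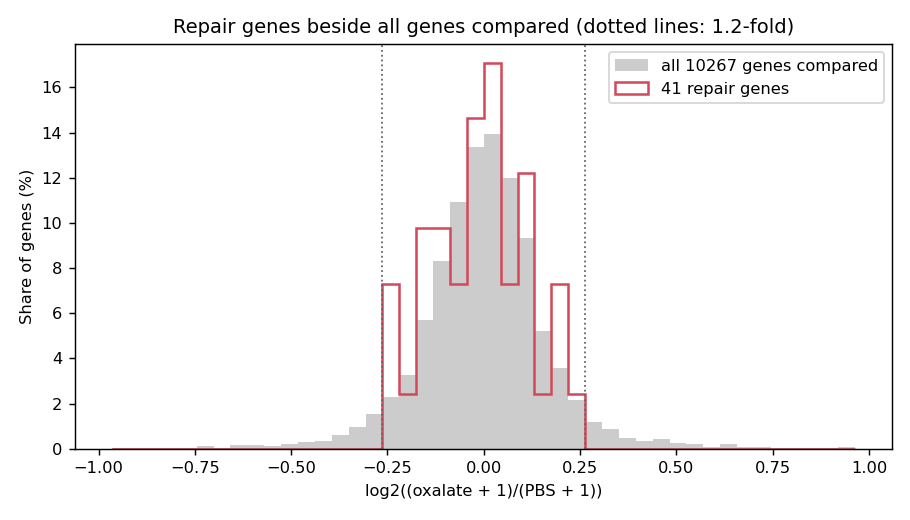
Share of genes (vertical axis, %) by log2((oxalate + 1)/(PBS + 1)) for all 10267 genes compared (grey) and the 41 repair genes (red outline), with dotted lines at 1.2-fold. The 73 genes beyond 0.964 in size are not drawn, and the repair genes fill the centre of the grey distribution with none outside the dotted lines.

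Many of these genes start close to another gene that is read in the opposite direction. In 20 of the 41 (48.8%) the annotated start lay within 1 kb of the start of another listed gene on the opposite strand, which holds for 18.2% of all annotated genes compared. Of these, 19 pairs are described. In 2 of the 19 (those of Mre11a and Xrcc4) the first parts of the genes overlap, and in the other pairs the starts were 21 to 978 bases apart. The 6 genes with the largest ratios in size were all among the 20, with Xrcc4, Palb2, Xrcc3, Chek2 and Rad54l in the pairs described. A size limit between 0.1802 (Xpa) and 0.1893 (Rad54l) sets these 6 apart, and it was placed there after the ratios were seen. Among all genes compared, 384 of 1870 with such a start passed that limit, and 1603 of 8391 without. Median PBS levels were 9.16 FPKM in the 20 and 13.16 FPKM in the other 21. The median size of the log2 ratio was nonetheless 0.0905 in the 20 and 0.0899 in the other 21, and 0.089 and 0.0867 in all genes compared with and without such a start.

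Stretches between the starts are shown for Palb2, Xrcc3, Chek2 and Rad54l, whose starts do not overlap those of their neighbours. Those of Palb2, Chek2 and Rad54l are the whole distance between the starts of both genes. That of Xrcc3 is 250 bases of it, from 111813880, whereas the annotated start of Xrcc3 is 111813873. The 4 stretches come from the RefSeq promoter table on GRCm38.p6 and are written 5′ to 3′ on the strand of the repair gene. Each was cut to the bases that lie before both annotated starts and within 250 bases of the RefSeq start. Capitals mark CCAAT and GGGCGG boxes and the E2F-type letters TTTGGCGC, TTTCCCGC, TTTGCCGC and TTTCGCGC, each searched on both strands, and a capital run can join neighbouring matches.
Palb2 to Dctn5 (chr7:122132986-122133040, minus strand): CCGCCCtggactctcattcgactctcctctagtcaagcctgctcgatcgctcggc
Chek2 to Hscb (chr5:110839778-110839978, plus strand): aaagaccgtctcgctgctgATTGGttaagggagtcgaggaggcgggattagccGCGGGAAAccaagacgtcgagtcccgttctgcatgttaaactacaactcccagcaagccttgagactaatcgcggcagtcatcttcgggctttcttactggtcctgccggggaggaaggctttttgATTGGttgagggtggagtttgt
Rad54l to Pomgnt1 (chr4:116123691-116123839, minus strand): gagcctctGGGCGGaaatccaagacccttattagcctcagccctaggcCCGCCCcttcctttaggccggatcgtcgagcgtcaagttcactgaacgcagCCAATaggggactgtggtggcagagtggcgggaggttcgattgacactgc
Xrcc3 to Zfyve21 (chr12:111813880-111814129, minus strand): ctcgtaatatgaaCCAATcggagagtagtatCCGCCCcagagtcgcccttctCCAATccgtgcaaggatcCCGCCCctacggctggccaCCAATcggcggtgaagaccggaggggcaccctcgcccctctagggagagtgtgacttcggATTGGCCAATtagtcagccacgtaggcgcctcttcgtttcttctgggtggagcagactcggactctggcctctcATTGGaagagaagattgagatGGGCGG

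Of the 4 stretches that of Chek2 held E2F-type letters and the others did not, and the 55 bases of the Palb2 stretch held a single GC box and no CCAAT box. Over the 250 bases before the RefSeq start, available for 34 of the 41 genes, E2F-type letters stood in 5 (Bard1, Brca2, Chek2, Msh3 and Xrcc6), or 14.7%. They stood in 3.9% of the 8158 genes compared that have a window and in 1.9% of all 27025 windows, 1 per gene. A CCAAT box was present in 18 of 34 (52.9%) beside 37.2% and 34.5%, and a GC box in 24 (70.6%) beside 63.0% and 32.9%. The window of a repair gene was the one nearest its annotated start, and that of any other gene was the first listed. These shares therefore rest on unlike choices of window. A match of letters is a description of the sequence and not evidence of a bound factor.

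The ratios of both genes of a pair were then set side by side. Of the 17 pairs described whose neighbour had a mean of at least 1 FPKM, 9 had the same sign. Chek2 and its neighbour Hscb, a chaperone of iron-sulphur cluster assembly, had log2 ratios of -0.20 and -0.21, though the interval of Hscb, from -0.48 to 0.011, includes 0. Palb2 was at -0.25 while Dctn5, a dynactin subunit 56 bases away, was at 0.0054. Mre11a (0.0079) and Ankrd49 (-0.61) lay farthest apart, with Ankrd49 at 9.48 FPKM with PBS and 5.85 with oxalate. Exons of Ankrd49 overlap 2.64% of the exon bases of Mre11a, which was at 52.12 and 52.41 FPKM. The libraries were made without a step that marks strand, so the value of Ankrd49 is uncertain. Levels differed widely in some pairs. Mcm4, a subunit of the replicative helicase, was 42.9-fold higher than Prkdc in the PBS library and 44.6-fold higher in the oxalate library, with 59.61 and 60.23 FPKM.

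**Figure D4:**
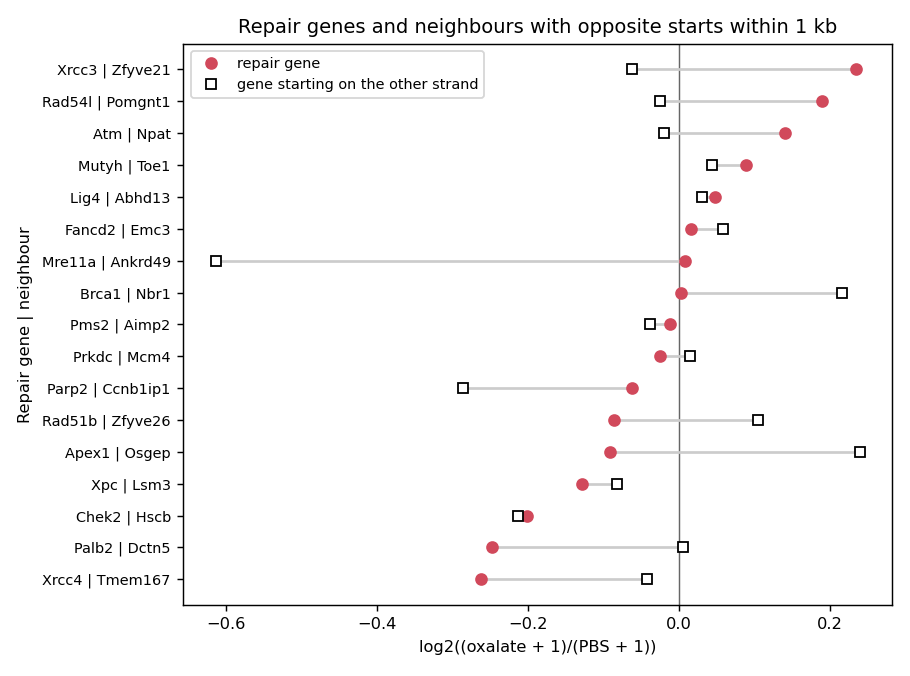
Log2((oxalate + 1)/(PBS + 1)) of 17 repair genes (red dots) and of the gene that starts within 1 kb on the opposite strand (open squares), ordered by the repair gene. In 9 of the 17 pairs both lie on the same side of 0, and Ankrd49 at -0.61 is the farthest neighbour.

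Homologous recombination was represented by 11 genes, of which 5 were higher and 6 lower with oxalate, with a median log2 ratio of -0.0087. Among genes with a mean of at least 5 FPKM, which leaves out Brca2, Palb2, Rad51b and Rad51c, the median was 0.092, so the sign depends on the lowest transcripts. Of 17 further recombination genes compared, 5 were higher and 12 lower, and their median was -0.043. Brca1 (ENSMUSG00000017146, chromosome 11, 101488764 to 101551955 on GRCm38), whose protein is a ubiquitin ligase that promotes end resection, was at 25.04 FPKM with PBS and at 25.09 with oxalate. It was the highest of the 11 in both libraries. Bard1, its obligate partner, was at 6.42 and 5.94 FPKM, so that Brca1 exceeded Bard1 3.90-fold and 4.22-fold. Brca2, the protein that loads the recombinase onto resected DNA, was at 4.64 FPKM with PBS and at 4.08 with oxalate, a log2 ratio of -0.15. Palb2 (ENSMUSG00000044702, chromosome 7, 122107262 to 122132985), which bridges the proteins of Brca1 and Brca2, was at 5.35 FPKM with PBS and at 4.35 with oxalate, a log2 ratio of -0.25. Bard1, Brca2 and Palb2 were the 3 recombination genes whose counting interval lay below 0, and that of Palb2, on the ratio without an added FPKM, ran from -0.47 to -0.13.

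The paralogs of the recombinase, which help assemble and stabilize the recombinase filament, differed among themselves in level and in sign. Rad51b was at 1.43 and 1.29 FPKM and Rad51c at 1.85 and 1.53 FPKM for PBS and oxalate. These are the lowest recombination transcripts, and their intervals, from -0.54 to 0.23 and from -0.56 to 0.014, include 0. For Rad51c that depends on the transcript length, since reads estimated from its longest coding transcript gave an interval below 0. Rad51d was several-fold more abundant at 15.3 and 16.66 FPKM, a log2 ratio of 0.12. Xrcc2, the partner of Rad51d, was at 7.32 and 7.27 FPKM. Xrcc3 (ENSMUSG00000021287, chromosome 12, 111803192 to 111813873), which pairs with the protein of Rad51c, was at 6.17 FPKM with PBS and at 7.44 with oxalate. Its log2 ratio of 0.24 was the highest of the 41 genes, and its interval ran from 0.12 to 0.42. The level of Xrcc3 was 3.33-fold that of Rad51c with PBS and 4.86-fold with oxalate.

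Rad52 and Rad54l act on the filament and on the exchanged strands. Rad52, an annealing protein, was at 6.62 and 7.12 FPKM. Rad54l (ENSMUSG00000028702, chromosome 4, 116094264 to 116123690), a motor protein that drives strand exchange, was at 5.49 FPKM with PBS and at 6.4 with oxalate, a log2 ratio of 0.19 with an interval from 0.076 to 0.37. Xrcc3, Rad54l and Rad51d were the 3 recombination genes with an interval above 0, as many as below at the mean transcript length. With reads from the shortest coding transcript the interval of Rad51d included 0 (-0.016 to 0.26). With the longest, that of Rad51c also lay below 0.

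Damage sensing and checkpoint genes numbered 8, of which 6 were higher and 2 lower, with a median log2 ratio of 0.023, or -0.0023 with the trend over transcript length taken away. The 15 further genes of this kind leaned the other way, with 5 higher and 10 lower and a median of -0.052. All 3 genes of the complex that first binds broken ends had log2 ratios within 0.01 of 0. Mre11a, its nuclease, was at 52.12 and 52.41 FPKM, Rad50, its tethering ATPase, at 32.76 and 32.9 FPKM, and Nbn, its adaptor, at 13.72 and 13.7 FPKM. The level of Mre11a was 1.59-fold that of Rad50 in both libraries, and 3.80-fold and 3.83-fold that of Nbn. With 6232 and 4026 estimated reads, the interval of Mre11a ran from -0.049 to 0.066.

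Among the kinases of the pathway, Atm, which is switched on by broken ends, was at 10.61 FPKM with PBS and at 11.8 with oxalate, a log2 ratio of 0.14. Atr, which answers to exposed single strands, was at 4.3 and 4.44 FPKM. Their downstream kinases stood on opposite sides of 0. Chek1, the target of the kinase Atr, was at 13.16 and 14.07 FPKM, a log2 ratio of 0.090 with an interval from -0.013 to 0.21. Chek2 (ENSMUSG00000029521, chromosome 5, 110839979 to 110874145), the target of the kinase Atm, was at 11.99 and 10.3 FPKM, a log2 ratio of -0.20 with an interval from -0.40 to -0.038. The level of Chek1 was therefore 1.10-fold that of Chek2 with PBS and 1.37-fold with oxalate. Trp53bp1, a chromatin reader that shields ends from resection, was at 11.31 and 12.94 FPKM, a log2 ratio of 0.18. Exons of Tubgcp4 overlap 21.65% of the exon bases of Trp53bp1, and in these libraries, made without a step that marks strand, reads there cannot be told apart.

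End joining genes numbered 5, with 2 higher and 3 lower and a median of -0.024. The 7 further end joining genes were 3 higher and 4 lower, and their median was -0.044. Xrcc4 (ENSMUSG00000021615, chromosome 13, 89774027 to 90089608), the scaffold of the ligase complex, was at 15.97 FPKM with PBS and at 13.15 with oxalate. Its log2 ratio of -0.26 was the lowest of the 41 genes, and its interval ran from -0.47 to -0.096. Lig4, the ligase that Xrcc4 stabilizes, was at 4.67 and 4.86 FPKM, so that Xrcc4 exceeded Lig4 3.42-fold with PBS and 2.71-fold with oxalate. Tmem167, which starts on the opposite strand, overlaps 6.58% of the exon bases of Xrcc4. Xrcc5 and Xrcc6 encode the Ku proteins, which form a ring on the broken end. Xrcc6 was at 37.73 and 37.98 FPKM, while Xrcc5 was at 30.27 and 27.13 FPKM, a log2 ratio of -0.15 with an interval from -0.23 to -0.087. Prkdc, the catalytic subunit that Ku recruits, was the lowest transcript of all with PBS at 1.39 FPKM and was at 1.35 FPKM with oxalate. The level of Xrcc6 was 27.1-fold and 28.1-fold that of Prkdc.

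Base excision and single-strand break repair held the most abundant transcript, that of Parp1, and all 6 genes had log2 ratios within 0.1 of 0, with 3 higher and 3 lower and a median of -0.024. Of 15 further genes of this repair, 9 were higher and 6 lower, and their median was 0.023. Parp1, the sensor of strand breaks, was at 133.18 FPKM with PBS and at 139.99 with oxalate, a log2 ratio of 0.071. Its 11868 and 8013 estimated reads gave the narrowest interval of the 41 genes, from 0.031 to 0.11. Parp2, a second such sensor, was at 18.48 and 17.66 FPKM. Xrcc1, the scaffold that gathers the repair enzymes, was at 26.17 and 24.88 FPKM. The glycosylases act on oxidized guanine and what pairs with it. Ogg1, which removes 8-oxoguanine, was at 14.76 and 14.92 FPKM, and Mutyh, which removes the adenine mispaired with it, was at 4.64 and 5 FPKM. Apex1, the endonuclease that cuts at the emptied site, was at 70.82 and 66.4 FPKM, a log2 ratio of -0.092. Exons of Pip4p1 overlap 61.67% of the exon bases of Apex1, the largest such overlap among the 41, so the value of Apex1 is uncertain. Overlaps of over 1% were found for 15 of the 41 genes.

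Mismatch repair was represented by 3 genes, all lower with oxalate in value, with a median log2 ratio of -0.092. The 4 further mismatch repair genes (Pms1, Mlh3, Pcna and Rfc1) were all higher in value, with a median of 0.068, opposite in sign to the 3. Of these only Pcna, the sliding clamp of replication, had an interval apart from 0, at 187.1 and 200.78 FPKM. Msh3 (ENSMUSG00000014850, chromosome 13, 92211872 to 92355003), which recognizes longer insertion loops, was at 7.77 FPKM with PBS and at 6.43 with oxalate, a log2 ratio of -0.24 with an interval from -0.43 to -0.12. Msh6, which recognizes single mismatches, was at 47.19 and 44.21 FPKM, a log2 ratio of -0.092 with an interval from -0.15 to -0.036. Pms2, the nicking endonuclease of the pathway, was at 10.16 and 10.07 FPKM and had an interval that includes 0. The level of Msh6 was 6.07-fold that of Msh3 with PBS and 6.88-fold with oxalate.

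Nucleotide excision repair was represented by 5 genes, 3 higher and 2 lower, with a median of 0.050. The 19 further genes were 11 higher and 8 lower, and their median was 0.045. Xpc, which finds the distorted helix, was at 12.37 FPKM with PBS and at 11.23 with oxalate, a log2 ratio of -0.13. Xpa, which verifies the lesion, was at 8.92 and 10.24 FPKM, a log2 ratio of 0.18 with an interval from 0.0042 to 0.39. Ercc2, a helicase of the transcription factor complex that opens the strands, was at 12.9 and 14.16 FPKM, a log2 ratio of 0.13. Recognition and opening thus held values on both sides of 0. Ercc1 and Ercc4 encode the nuclease that cuts on the 5′ side of the lesion. Ercc1 was at 80.22 and 83.06 FPKM and Ercc4 at 9.15 and 9.08 FPKM, so that Ercc1 was 8.77-fold and 9.15-fold higher than its partner. Ercc1, Ercc2 and Xpa share 5.91%, 20.74% and 4.86% of their exon bases with other genes. Without them the pathway median, then over Xpc and Ercc4 alone, was -0.069.

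The Fanconi anaemia pathway was represented by 3 genes, 1 higher and 2 lower, with a median of -0.035. The 11 further genes were 4 higher and 7 lower, and their median was -0.014. Fanca, a subunit of the core ubiquitin ligase, was at 21.35 FPKM with PBS and at 20.81 with oxalate. Fancd2 and Fanci form the clamp that this ligase modifies, and they had nearly equal levels, with Fancd2 at 8.15 and 8.25 FPKM and Fanci at 8.9 and 8 FPKM. Fanci had a log2 ratio of -0.14 and an interval from -0.29 to -0.016, whereas the intervals of Fanca and Fancd2 include 0. Polg overlaps 13.6% of the exon bases of Fanci.

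GC content moved with the ratios in this table. The coding transcripts of the repair genes had a median GC content of 47.6%, below the 51.0% of all genes compared. The 20 repair genes with the lowest GC content (41.2% to 47.5%) had a median log2 ratio of -0.018, and the other 21 (47.6% to 59.3%) had 0.015. All genes compared within the same GC limits had medians of -0.032 and 0.022. Spearman's correlation of GC content with the log2 ratio was 0.227 across the 41 genes and 0.202 across 10261 genes, which share their libraries and are not replicates. With the running median over GC content taken away, the median over the repair genes was -0.0014, and no gene passed 1.2-fold beside 9.60% of all genes. The part of base composition in the ratio of any gene was not tested.

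**Figure D5:**
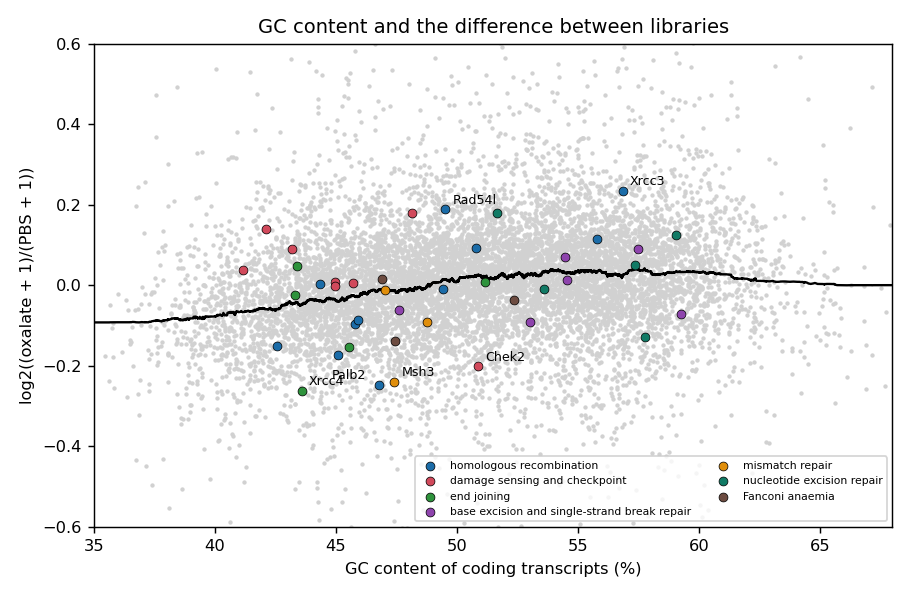
Log2((oxalate + 1)/(PBS + 1)) against the GC content of coding transcripts (%) for all genes compared (grey), with their running median (black line) and the repair genes in colour by pathway, the 6 with the largest ratios named. The 215 genes outside the limits of the plot are not drawn, and the black line climbs through 0 near the middle of the range while the repair genes scatter around it.

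Further repair genes were taken from a list of 100, of which 99 were found and 97 had a mean of at least 1 FPKM. With oxalate 47 were higher and 50 lower, with a median log2 ratio of -0.0036. Past 1.2-fold there were 4 higher and 3 lower, or 7 of 97 beside 9.94% of all genes compared. Past 1.5-fold there was 1 in each direction, beside 0.935% of all genes compared higher and 1.05% lower. Fen1 (ENSMUSG00000024742, chromosome 19, 10199132 to 10204169), the flap endonuclease of replication and long-patch base excision repair, was at 23.19 FPKM with PBS and at 50.72 with oxalate, a log2 ratio of 1.10. Tmem258 overlaps 5.37% of its exon bases. It was the only gene of the list past 2-fold, which 0.653% of all genes passed. Polm, a polymerase that fills gaps during end joining, was at 13.74 and 8.41 FPKM, a log2 ratio of -0.65. The count depends on the added 1 FPKM. Nhej1, another end joining gene, was at 2.96 and 1.9 FPKM, a log2 ratio of -0.45. Without the added FPKM its ratio was -0.64, past 1.5-fold, with a counting interval from -1.05 to -0.24. Fen1 has 4 coding transcripts and Polm 2, and how reads were shared among them is not given in the sources used here. Mgmt and Neil2, which encode a methyltransferase that reverses alkylated guanine and a glycosylase for oxidized bases, were listed at 0 in both libraries.

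Transcripts known to follow DNA damage were set beside the repair genes. Damage itself was not measured, and whether this list follows it in 4T1 cells was not tested. Of 16 listed, 13 had a mean of at least 1 FPKM, with 5 higher and 8 lower and a median of -0.055. At the mean transcript length, the counting interval lay below 0 for 6 of the 13 and above 0 for 3. Among all genes compared, 23.9% lay below 0 and 24.9% above. Whether the 13 differ from all genes was not tested. Cdkn1a, a cell cycle inhibitor, was at 13.26 FPKM with PBS and at 10.67 with oxalate, a log2 ratio of -0.29. Mdm2, a ubiquitin ligase that restrains the damage response, was at 12.95 and 11.12 FPKM, a log2 ratio of -0.20. Rrm2b, a ribonucleotide reductase subunit, was at 21.21 and 18.4 FPKM, a log2 ratio of -0.20. These 3 genes were lower with oxalate, with intervals below 0. Gadd45a, a stress sensor, was at 16.26 and 19.34 FPKM, a log2 ratio of 0.24. Sesn1, which restrains growth signalling under stress, was at 3.96 and 5.1 FPKM, a log2 ratio of 0.30. Cdkn1a and Sesn1 were the 2 of the 13 past 1.2-fold, 1 lower and 1 higher, beside 9.94% of all genes compared (5.19% lower and 4.75% higher).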

How the data were processed

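RNA of 4T1 cells kept with PBS or potassium oxalate was sequenced in 1 library each. The authors deposited FPKM values rounded to 2 decimals. The submitters' processing notes name Bowtie2 2.2.8 and TopHat2 2.1.1. The quantification tool, genome build and filters are not given in the sources used here. Rounding hides single reads in long genes.

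Symbols, coordinates, transcript lengths and GC content came from GENCODE M21 (GRCm38), which matched 21848 of 21911 identifiers. The 41 members and all lists were chosen with earlier results of these data known. Every member was named, and of the wider list those past 1.5-fold, with Nhej1 past it only without the added 1 FPKM. Genes listed at 0, the further mismatch repair genes, the damage transcripts named and the opposite-strand starts were chosen after values were seen. So were the size limit that sets 6 genes apart, the motif letters, the exon overlaps and the other read lengths. The ratio was log2((oxalate + 1)/(PBS + 1)), compared over genes with a mean of at least 1 FPKM. No test between conditions was possible. A marker and a pair of neighbouring genes are not reported here.

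Reads were estimated from the FPKM steps of single-transcript genes under 0.7 kb (0.0176 and 0.0274 FPKM × kb per read) and the mean coding transcript length. Deposited FPKM times the mean coding transcript length summed to 98.6% of what the definition of FPKM requires in each library. That sum does not use the steps and is no check on them. Exact Clopper-Pearson intervals (95%) followed. GC and length trends were running medians over 501 genes. Steps were tested on simulated data. Alternatives are given in the closing section. Computation used Python 3.11.15 with scipy 1.17.1, pandas 2.3.3 and numpy 2.4.6, and plots used matplotlib 3.10.9.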

Additional observations from a re-analysis of the deposited data

How the results depend on the processing

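No paired analysis was possible because there is 1 library of each kind, and for the same reason no library could be left out. The median over the 41 genes stayed between -0.014 (the mean in its place) and 0.018 (both libraries rescaled to the same FPKM sum) under every alternative run. The split of 20 higher and 21 lower became 24 and 17 with equal sums, and 17 and 23 with the length trend taken away. The count past 1.2-fold, 0 as reported, became 4 with 0.1 FPKM added, 5 with 0.01 FPKM added, and 1 after either rescaling (Xrcc4 with the median ratio set to 1, Xrcc3 with equal sums). None passed 1.5-fold under any of them. At a mean of at least 5 FPKM, which leaves 33 genes, the end joining median became -0.15, since Lig4 and Prkdc drop out, and the recombination median went from -0.0087 to 0.092. In settings chosen after the values were seen, leaving out 15 genes whose exons overlap another gene by over 1% gave 11 higher genes and a nucleotide excision repair median of -0.069, and the shortest coding transcript gave 9 genes with an interval apart from 0. Group medians also changed sign for recombination with equal sums (0.010), for damage sensing with the length trend taken away (-0.0023) and for base excision repair without the overlapping genes (0.0047). Of 246 single-gene values 12 changed sign, all for ratios of at most 0.038 in size, and 0 shifted by more than the half-width of their interval. A median counted as moved past 0.109, the median half-width of the members' intervals. With estimated reads from the mean transcript length, depth limits Rad51b, Rad51c and Mutyh most, at 91 to 183 estimated reads in the oxalate library.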
